A study of Danio rerio with 9 samples.

Results

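The genes described here make fatty acids and triglycerides in zebrafish liver. They were given as a list of 36 gene symbols covering lipogenic regulators, enzymes that supply precursors, fatty acid synthesis, desaturation and elongation, and the assembly of glycerolipids. Matching by symbol, with case ignored, found 27 of the 36 symbols, on 29 of the 33716 gene IDs in the expression table. Acly and gpat3 each stand on 2 gene IDs. The symbols elovl1a, elovl1b, fads2, slc25a1b, dgat1a, dgat1b, hsd17b12a, tecrb and gpd1b matched no gene ID under that spelling and are not analysed here as members. Of the 29 gene IDs, 27 reached the mean of 0.5 FPKM over the 9 libraries that was required for testing. FPKM is a fragment count adjusted for transcript length and sequencing depth, and all values below are FPKM after rescaling between libraries.

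RNA-seq libraries came from 3 groups of livers with 3 libraries each. They were maternal-zygotic focad null fish, for which the labels used here give no age, maternal-zygotic pdia6 null fish of 3.5 months, and wild-type fish of the AB line of 3.5 months. Focad encodes focadhesin, and pdia6 encodes an enzyme that forms disulfide bonds in the endoplasmic reticulum. Maternal-zygotic means that the product was missing already in the egg. The labels leave unsaid whether each library is a different fish, so a p-value here measures library-to-library spread, part of which may be technical. Both comparisons with wild type share the same 3 wild-type libraries.

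Some facts of the whole series bear on the values below. Library depth ran from 46.1 to 54.5 M reads. The focad transcript measured 0.276, 0.528 and 0.240 FPKM in focad null, against 1.13, 0.521 and 1.03 FPKM in wild type, so the library labelled focad null replicate 2 lay within the wild-type range. The pdia6 transcript measured 44.3, 0.902 and 0.913 FPKM in pdia6 null, against 265, 14.2 and 56.4 FPKM in wild type, so the library labelled pdia6 null replicate 1 also lay within it. The summed level of 19 intestine marker genes was 3093, 22639 and 1309 FPKM in focad null, 436, 2317 and 878 FPKM in pdia6 null, and 686, 1068 and 313 FPKM in wild type. Of these sums, apoa4b.1 alone gave 1250, 780 and 1094 FPKM in focad null, 325, 2155 and 764 FPKM in pdia6 null, and 600, 933 and 94.2 FPKM in wild type. Hepatocyte markers (18 genes) summed to between 163956 and 170979 FPKM in focad null, 175723 and 193442 FPKM in pdia6 null, and 188201 and 210950 FPKM in wild type. The hepatocyte marker fabp10a was high in all 9 libraries. Of the marker genes, hp, a hepatocyte acute-phase gene, differed by -6.52 on the log2 scale in focad null against wild type (adjusted p = 0.048 by limma), and hbaa2, a haemoglobin gene, by 1.05 (adjusted p = 0.034). Hbaa2 averaged 0.13 FPKM in wild type and 0.23 FPKM in pdia6 null, and reached the level required for testing only through focad null. Over the erythrocyte list, 1 of 5 genes tested had a positive log2 difference in focad null against wild type, with a median of -0.70. In whole liver, a lower level may reflect fewer cells of a type or less RNA per cell, and these cannot be told apart.

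In the liver, carbohydrate in excess is turned into fatty acids. Citrate leaves the mitochondrion, is split to acetyl-CoA, carboxylated to malonyl-CoA and built by fatty acid synthase into palmitate, with NADPH as the reducing agent. Desaturases and elongases then modify the chains, and acyltransferases join them to glycerol as triglyceride. The transcription factors SREBP-1, ChREBP and LXR switch the pathway's genes on, and in mammals the pathway is known for its strong response to feeding.

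Levels of the members in wild type covered a wide range. By mean FPKM the order began with thrsp (280), lpin1 (102), elovl6 (81.3), elovl2 (74.8), acly (60.2), agpat3 (56.7), elovl5 (38.8), lpin2 (37.6) and me1 (36.9). It continued with dgat2 (27.6), hsd17b12b (25.3), acaca (22.3), mlx (20.5), the higher gpat3 (14.7), fasn (10.6) and nr1h3 (7.69). The low end was formed by acacb (5.03), agpat2 (4.93), hacd3 (4.67), slc25a1a (2.89), srebf1 (2.75), acss2 (2.35), mlxipl (2.16), the lower gpat3 (1.73), scd (1.16), gpam (0.848) and mogat2 (0.0445). The wild-type libraries of neighbours in this order overlapped for 24 of 26 pairs, so most ranks were not separated by the spread. The exceptions were mlx above the higher gpat3, and gpam above mogat2.

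The members varied between libraries of the same genotype more than the typical gene did. The median SD of log2(FPKM + 1) within a group was 0.61 for the members in focad null, 0.43 in pdia6 null and 0.53 in wild type, against 0.32, 0.26 and 0.26 over all genes tested. In wild type, lpin1 differed 21.9-fold between its highest and lowest library, me1 17.9-fold, thrsp 16-fold, elovl5 12.7-fold and elovl6 10.7-fold. Wild-type replicate 1 held the highest wild-type value of me1, elovl5 and elovl6 and the lowest of thrsp and lpin1. In focad null, elovl5 differed 29.2-fold, scd 26.7-fold and me1 12-fold, with replicate 2 lowest each time. Mogat2 differed 125-fold and gpat3 ENSDARG00000006491 16.7-fold there, with replicate 2 highest. The library labelled focad null replicate 2 was the lowest of its group for 18 of the 27 members (66.7%), against 41.1% of all genes tested. It was the highest for 6 members (22.2%), against 45.3% of all genes tested. Relative to each member's mean over all 9 libraries, the median member stood at 0.24, -0.42 and 0.16 log2 units in focad null replicates 1 to 3, at -0.20, -0.01 and 0.23 in pdia6 null, and at 0.08, -0.18 and -0.48 in wild type.

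**Figure D1:**
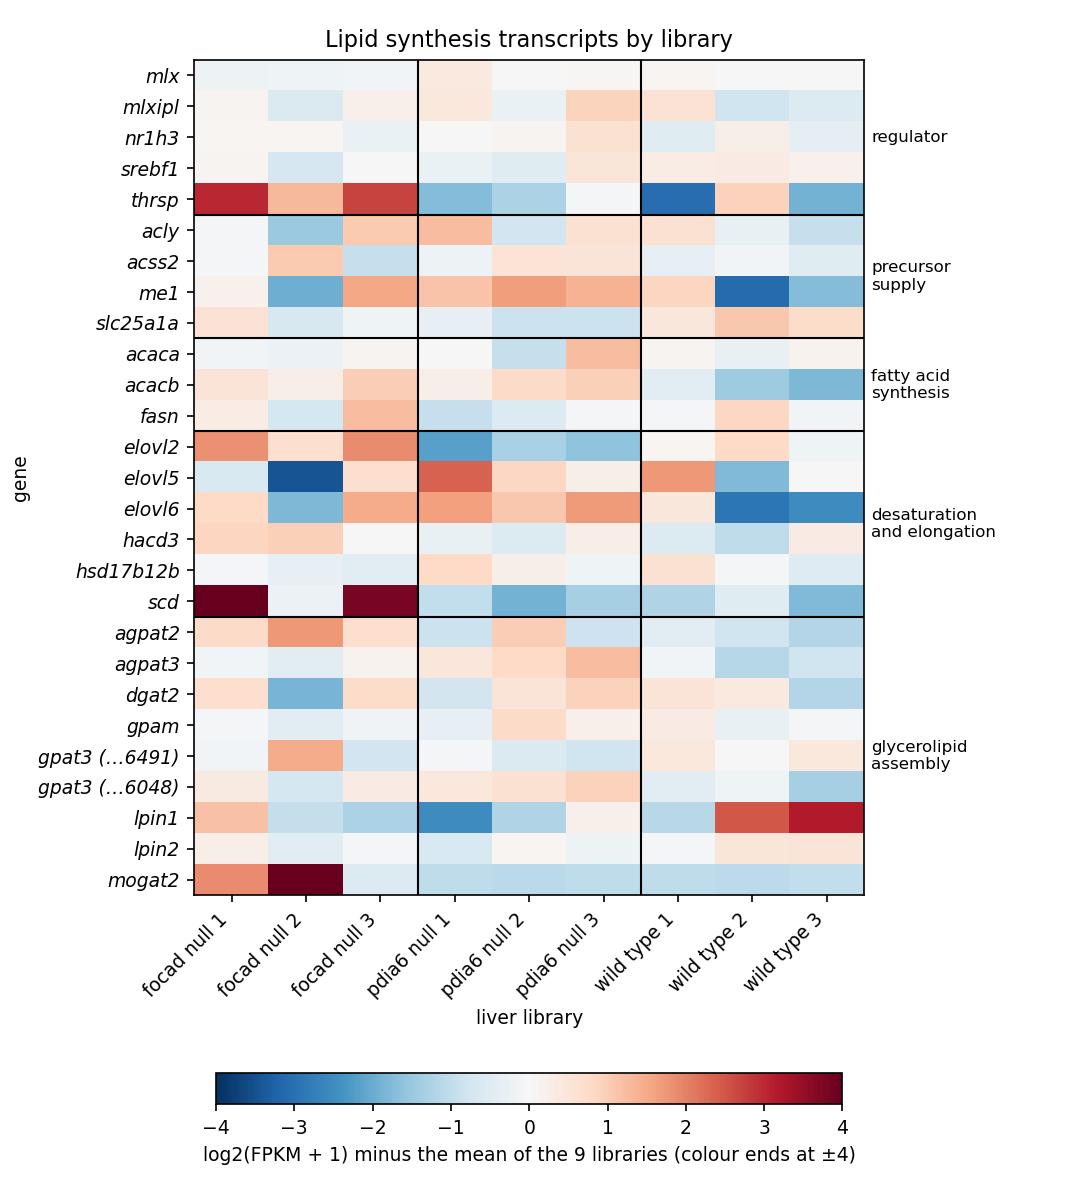
Log2(FPKM + 1) of the 27 members tested, minus each gene's mean over the 9 libraries, with genes down the page by role and libraries across in the order focad null, pdia6 null and wild type. Colours end at 4 log2 units either way. Columns of the same genotype differ visibly, as for elovl5 and me1 in wild type, and elovl2 is the row in which all focad null columns lie above all pdia6 null columns by a difference that passed the test.

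Set against wild type, no member passed the test in either mutant, and the single difference that passed lay between the mutants. In focad null against wild type, 0 of 27 members passed limma at an adjusted p of 0.05, where 1.56% of the 13290 genes tested did. At an unadjusted p under 0.05 there were 7 members higher and 1 lower (29.6%, against 14.7% of all genes), and limma voom on recovered reads also called 0. The 7 higher members include mogat2, which reached the level required for testing only through focad null. In pdia6 null against wild type, 0 of 27 passed, where 1.23% of all genes did. Here 5 members were higher and 2 lower at an unadjusted p under 0.05 (25.9%, against 12.5% of all genes), and voom called 0. In focad null against pdia6 null, 1 of 27 passed, elovl2, where 1.20% of all genes did. Between the mutants 5 members were higher, mogat2 among them, and 1 lower at an unadjusted p under 0.05 (22.2%, against 17.9% of all genes). The members were chosen with earlier results of these data known, so these shares are a description.

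The median log2 difference of the 27 members was 0.17 in focad null against wild type, beside 0.01 over all genes tested. It was 0.54 without the library labelled focad null replicate 2. The median was 0.28 in pdia6 null against wild type, beside -0.01 over all genes, and -0.18 in focad null against pdia6 null, beside 0.01. Libraries did not overlap for 7 members in focad null against wild type (25.9%, where 20.0% of all genes did so), for 8 in pdia6 null against wild type (29.6%, against 20.6%), and for 7 between the mutants (25.9%, against 24.4%). Both counts of 7 include mogat2, whose direction was partly fixed by reaching the level required for testing only through focad null.

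Elovl2 elongates polyunsaturated fatty acids at the step that leads to docosahexaenoic acid. Elovl2 (ENSDARG00000045414) stood at 219, 96.6 and 228 FPKM in focad null, at 12.7, 24.2 and 19.1 FPKM in pdia6 null, and at 64.6, 105 and 54.5 FPKM in wild type. All focad null libraries lay above all pdia6 null libraries, and all pdia6 null libraries lay below all wild-type libraries. The focad null and wild-type libraries overlapped, because the library labelled focad null replicate 2 lay below wild-type replicate 2. The fewest reads behind any of these values were 2508. Mean levels were 181 ± 73.4 FPKM in focad null, 18.7 ± 5.74 FPKM in pdia6 null and 74.8 ± 27.0 FPKM in wild type (SD, n = 3 each).

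Elovl2 was higher in focad null than in pdia6 null by 3.16 ± 0.42 on the log2 scale (SE), with an adjusted p of 0.0116 by limma. The mean levels differed 9.71-fold. The difference between focad null and wild type was 1.22 ± 0.42 (adjusted p = 0.235), and that between pdia6 null and wild type was -1.93 ± 0.42 (adjusted p = 0.0813). Neither passed. Without the library labelled focad null replicate 2, which enters only the shared spread, the difference between pdia6 null and wild type passed (-1.93, adjusted p = 0.030). The difference between the mutants passed under 18 of 21 alternatives, with adjusted p from 0.00463 to 0.0834 and log2 differences from 2.92 to 3.56. It was lost without focad null replicate 1 (adjusted p = 0.0599), without the libraries of replicate 1 of wild type and pdia6 null (adjusted p = 0.0834) and with the replicate number as a block (adjusted p = 0.0524). It held without the libraries labelled focad null replicate 2 and pdia6 null replicate 1 (3.32, adjusted p = 0.0149).

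**Figure D2:**
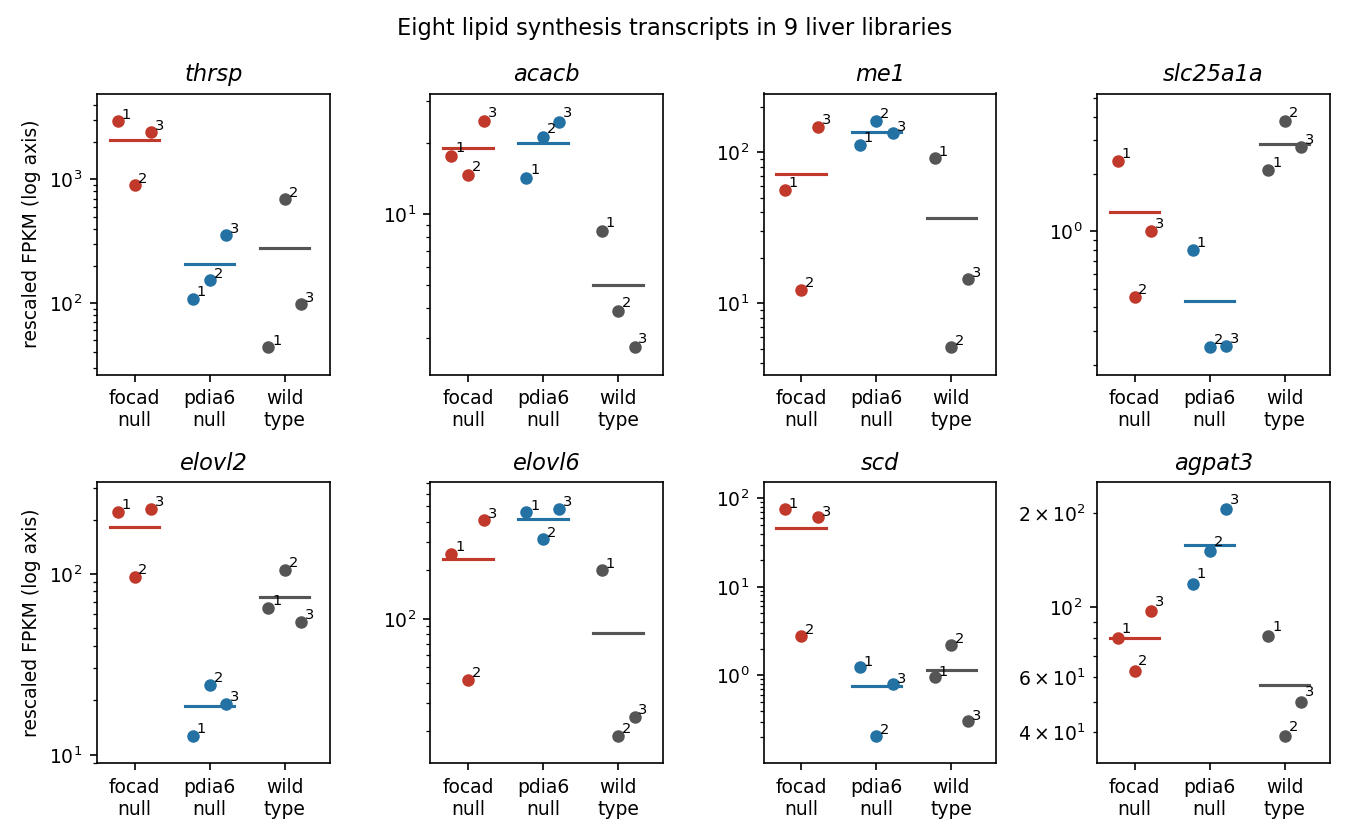
Level of 8 members in each of the 9 libraries, as FPKM on a log axis, for focad null, pdia6 null and wild type from left to right. Points are libraries marked by replicate number and bars are group means. Elovl2 lies between 12.7 and 24.2 FPKM in pdia6 null and above that in every other library, and acacb lies higher in all 6 mutant libraries than in wild type.

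Among the regulators, thrsp had the widest difference. Thrsp encodes the thyroid hormone responsive protein, known in mammals as Spot 14, which promotes hepatic fatty acid synthesis. It stood at 2982, 905 and 2405 FPKM in focad null, at 109, 152 and 355 FPKM in pdia6 null, and at 43.7, 699 and 98.4 FPKM in wild type. Every focad null library lay above the other 6, with the smallest gap at wild-type replicate 2. The log2 difference was 3.68 ± 0.97 (SE) in focad null against wild type (adjusted p = 0.134) and 3.36 ± 0.97 against pdia6 null (adjusted p = 0.144), so neither passed. Without wild-type replicate 2, the difference between focad null and wild type was 4.81 with an adjusted p of 0.0262. That library was the highest of wild type, so leaving it out necessarily widens the difference, and this pass adds no support. Omissions of 1 library gave 2.82 to 4.81. In pdia6 null against wild type it was 0.32 ± 0.97 (adjusted p = 0.956).

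The transcription factors of the pathway differed by less than 1 log2 unit in every comparison. Srebf1, which encodes SREBP-1, stood at 2.33, 0.925 and 2.16 FPKM in focad null, at 1.60, 1.20 and 3.30 FPKM in pdia6 null, and at 2.84, 2.93 and 2.49 FPKM in wild type. All focad null libraries lay below wild type, by -0.46 ± 0.30 on the log2 scale (adjusted p = 0.529). Mlxipl, which encodes the glucose-responsive factor ChREBP, stood at 2.71, 1.34 and 2.96 FPKM in focad null, at 3.62, 1.91 and 5.46 FPKM in pdia6 null, and at 4.12, 0.985 and 1.38 FPKM in wild type, with overlap throughout. Its partner mlx lay between 17.2 and 26.9 FPKM in all 9 libraries, with focad null below the other 6 (-0.19, adjusted p = 0.708 against wild type). Nr1h3, the liver X receptor, lay between 5.98 and 13.9 FPKM and overlapped in all 3 comparisons.

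Genes that supply acetyl-CoA and NADPH included a carrier and an enzyme whose pdia6 null libraries stood apart from wild type without passing the test. Slc25a1a, a mitochondrial citrate carrier, stood at 2.34, 0.452 and 1.00 FPKM in focad null, at 0.795, 0.246 and 0.249 FPKM in pdia6 null, and at 2.09, 3.81 and 2.77 FPKM in wild type. All pdia6 null libraries lay below all wild-type libraries, by -1.44 ± 0.32 on the log2 scale (adjusted p = 0.0931). Reads were few, at 78, 25 and 23 in pdia6 null, against 187, 294 and 248 in wild type. In focad null against wild type the difference was -0.84 ± 0.32 (adjusted p = 0.285) and the libraries overlapped. A more abundant gene ID named slc25a1 without a copy letter, ENSDARG00000076381, averaged 19.9 FPKM in pdia6 null and 16.1 FPKM in wild type. Its libraries overlapped, with a log2 difference of 0.26 ± 0.65 between these groups (adjusted p = 0.940 by limma).

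Me1, the cytosolic malic enzyme that yields NADPH, stood at 56.1, 12.3 and 148 FPKM in focad null, at 112, 162 and 134 FPKM in pdia6 null, and at 91.2, 5.09 and 14.4 FPKM in wild type. The pdia6 null libraries lay above wild type and close to each other, and wild-type replicate 1 lay near them. The difference was 2.72 ± 1.07 on the log2 scale (adjusted p = 0.349), and 1.24 ± 1.07 in focad null against wild type (adjusted p = 0.653). Acly (ENSDARG00000099079), which splits citrate, ran from 21.8 to 130 FPKM in focad null, from 36.7 to 149 FPKM in pdia6 null and from 32.6 to 97.0 FPKM in wild type, with log2 differences of 0.03 (adjusted p = 0.993) in focad null and 0.56 (adjusted p = 0.843) in pdia6 null against wild type. The other acly gene ID, ENSDARG00000055652, averaged 0.265 FPKM and was not tested. Acss2, which makes acetyl-CoA from acetate, stood at 2.97, 7.49 and 1.17 FPKM in focad null, at 2.6, 5.06 and 4.87 FPKM in pdia6 null, and at 2.27, 2.82 and 1.96 FPKM in wild type, with overlap.

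Acetyl-CoA carboxylase makes malonyl-CoA and is encoded by acacb and acaca. Acacb, whose mammalian product sits at the mitochondrion where malonyl-CoA restrains fatty acid oxidation, stood at 17.5, 14.6 and 24.8 FPKM in focad null, at 14.2, 21.1 and 24.6 FPKM in pdia6 null, and at 8.47, 3.89 and 2.73 FPKM in wild type. All 6 mutant libraries lay above all wild-type libraries. The difference was 1.81 ± 0.38 on the log2 scale in focad null against wild type (adjusted p = 0.0623) and 1.88 ± 0.38 in pdia6 null against wild type (adjusted p = 0.0629), both just outside the threshold. The mutants differed from each other by -0.07 ± 0.38 (adjusted p = 0.947). Wild-type replicate 1 was the highest wild-type library, and without it both differences passed, at 2.19 (adjusted p = 0.0223) and 2.26 (adjusted p = 0.0205). Leaving out the library nearest the mutants necessarily widens both differences, so these passes add no support. Acacb passed under no other omission of 1 library. Such omissions gave 1.52 to 2.19 in focad null and 1.59 to 2.26 in pdia6 null. Both rest on the same wild-type libraries, so they are not separate evidence.

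Acaca, the cytosolic form that feeds fatty acid synthesis, stood at 20.9, 18.7 and 24.2 FPKM in focad null, at 22, 11.4 and 53.7 FPKM in pdia6 null, and at 24.2, 17.9 and 24.9 FPKM in wild type. Its log2 difference from wild type was -0.06 in focad null (adjusted p = 0.974) and 0.11 in pdia6 null (adjusted p = 0.970). Fasn, fatty acid synthase itself, stood at 10.7, 4.81 and 21.2 FPKM in focad null, at 3.91, 5.5 and 7.90 FPKM in pdia6 null, and at 8.19, 15.9 and 7.71 FPKM in wild type. Fasn overlapped in all 3 comparisons, with log2 differences from wild type of 0.05 (adjusted p = 0.981) in focad null and -0.75 (adjusted p = 0.607) in pdia6 null.

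Scd, the stearoyl-CoA desaturase that makes monounsaturated fatty acids, stood at 75.3, 2.82 and 60.9 FPKM in focad null, at 1.24, 0.207 and 0.799 FPKM in pdia6 null, and at 0.958, 2.22 and 0.303 FPKM in wild type. Focad null replicates 1 and 3 lay far above the rest, while the library labelled focad null replicate 2 lay just above wild-type replicate 2. Reads in focad null numbered 5553, 149 and 4156. The difference was 3.70 ± 1.01 on the log2 scale in focad null against wild type (adjusted p = 0.148) and 3.95 ± 1.01 against pdia6 null (adjusted p = 0.117), and neither passed. Without the library labelled focad null replicate 2, both passed, at 5.09 (adjusted p = 0.00179) and 5.34 (adjusted p = 0.00138). That library was the lowest of focad null, so leaving it out necessarily widens both differences. Omissions of 1 library gave 2.93 to 5.09 against wild type and 3.18 to 5.34 against pdia6 null. Pdia6 null and wild type differed by -0.25 (adjusted p = 0.968). The other desaturase on the list, scdb, reached at most 0.0819 FPKM and was not tested.

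The elongases besides elovl2 gave no difference that passed. Elovl6, which lengthens palmitate to stearate, stood at 255, 41.6 and 409 FPKM in focad null, at 459, 312 and 480 FPKM in pdia6 null, and at 201, 18.7 and 24.5 FPKM in wild type. All pdia6 null libraries lay above wild type, by 3.14 ± 1.02 on the log2 scale (adjusted p = 0.242), and wild-type replicate 1 stood well above the other wild-type libraries, as it did for me1. In focad null against wild type the difference was 1.82 ± 1.02 (adjusted p = 0.452) with overlap.

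Elovl5, an elongase of polyunsaturated fatty acids upstream of elovl2, stood at 16.1, 1.37 and 40.1 FPKM in focad null, at 133, 44.9 and 29.5 FPKM in pdia6 null, and at 84.9, 6.69 and 24.8 FPKM in wild type. Its direction was opposite to that of elovl2 in focad null against pdia6 null (-2.27 ± 1.18, adjusted p = 0.350), and its libraries overlapped. Hacd3 and hsd17b12b encode enzymes of later steps of the elongation cycle. Hacd3 lay between 5.89 and 12.6 FPKM in focad null, 3.73 and 7.38 FPKM in pdia6 null, and 2.41 and 7.81 FPKM in wild type, and hsd17b12b lay between 16.1 and 41.7 FPKM in all libraries.

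Triglyceride assembly begins with acylation of glycerol 3-phosphate by gpam or gpat3 and proceeds through agpat enzymes, lipins and dgat enzymes. Gpam, the mitochondrial acyltransferase, was low, at 0.748, 0.357 and 0.667 FPKM in focad null, at 0.445, 2.08 and 1.1 FPKM in pdia6 null, and at 1.27, 0.493 and 0.784 FPKM in wild type. Gpat3 (ENSDARG00000016048), of the endoplasmic reticulum in mammals, stood at 29.1, 13.3 and 28.3 FPKM in focad null, at 30.2, 34.7 and 42.8 FPKM in pdia6 null, and at 16.2, 19.6 and 8.21 FPKM in wild type. All its pdia6 null libraries lay above both other groups, by 1.30 ± 0.39 on the log2 scale against wild type (adjusted p = 0.200). The other gpat3 gene ID, ENSDARG00000006491, went the other way in pdia6 null. It stood at 1.07, 5.33 and 0.318 FPKM in focad null, at 1.17, 0.513 and 0.295 FPKM in pdia6 null, and at 1.97, 1.23 and 1.97 FPKM in wild type. All its pdia6 null libraries lay below wild type, by -0.74 ± 0.51 on the log2 scale (adjusted p = 0.630 by limma). How the authors' counting treated reads shared by these copies was not tested.

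Agpat3, an acyltransferase acting on lysophosphatidic acid, stood at 79.8, 62.9 and 97.2 FPKM in focad null, at 119, 151 and 205 FPKM in pdia6 null, and at 81.1, 39.0 and 50.1 FPKM in wild type. Its pdia6 null libraries lay above the other 6, by 1.5 ± 0.34 on the log2 scale against wild type (adjusted p = 0.0947), and focad null lay below pdia6 null by -0.96 ± 0.34 (adjusted p = 0.205). Agpat2 acts at the same step and stood at 16.3, 32.9 and 15.3 FPKM in focad null, at 4.69, 19.3 and 4.73 FPKM in pdia6 null, and at 6.44, 4.84 and 3.51 FPKM in wild type. Its focad null libraries lay above wild type, by 1.87 ± 0.52 (adjusted p = 0.154). The highest agpat2 value of each mutant was in replicate 2, which also held the highest intestine marker sum of its group. In pdia6 null replicate 2, apoa4b.1 alone made up 2155 of the 2317 FPKM of that sum, while fabp2 stood at 3.45 FPKM and vil1 at 0.182 FPKM.

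Lpin1 and lpin2 dephosphorylate phosphatidic acid to diacylglycerol. Lpin1 ran from 7.52 to 44.7 FPKM in focad null, from 2.58 to 22.4 FPKM in pdia6 null and from 8.40 to 184 FPKM in wild type, with overlap and log2 differences of -1.86 ± 1.19 (adjusted p = 0.521) in focad null and -2.69 ± 1.19 (adjusted p = 0.405) in pdia6 null from wild type. Lpin2 varied less, between 19.1 and 43.0 FPKM in all libraries. Dgat2, which makes triglyceride from diacylglycerol, stood at 42.3, 6.43 and 44.1 FPKM in focad null, at 15.2, 37.5 and 50.1 FPKM in pdia6 null, and at 37.7, 34.2 and 10.9 FPKM in wild type. Dgat2 overlapped in all 3 comparisons, and its log2 differences from wild type were -0.05 (adjusted p = 0.988) in focad null and 0.33 (adjusted p = 0.938) in pdia6 null.

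**Figure D3:**
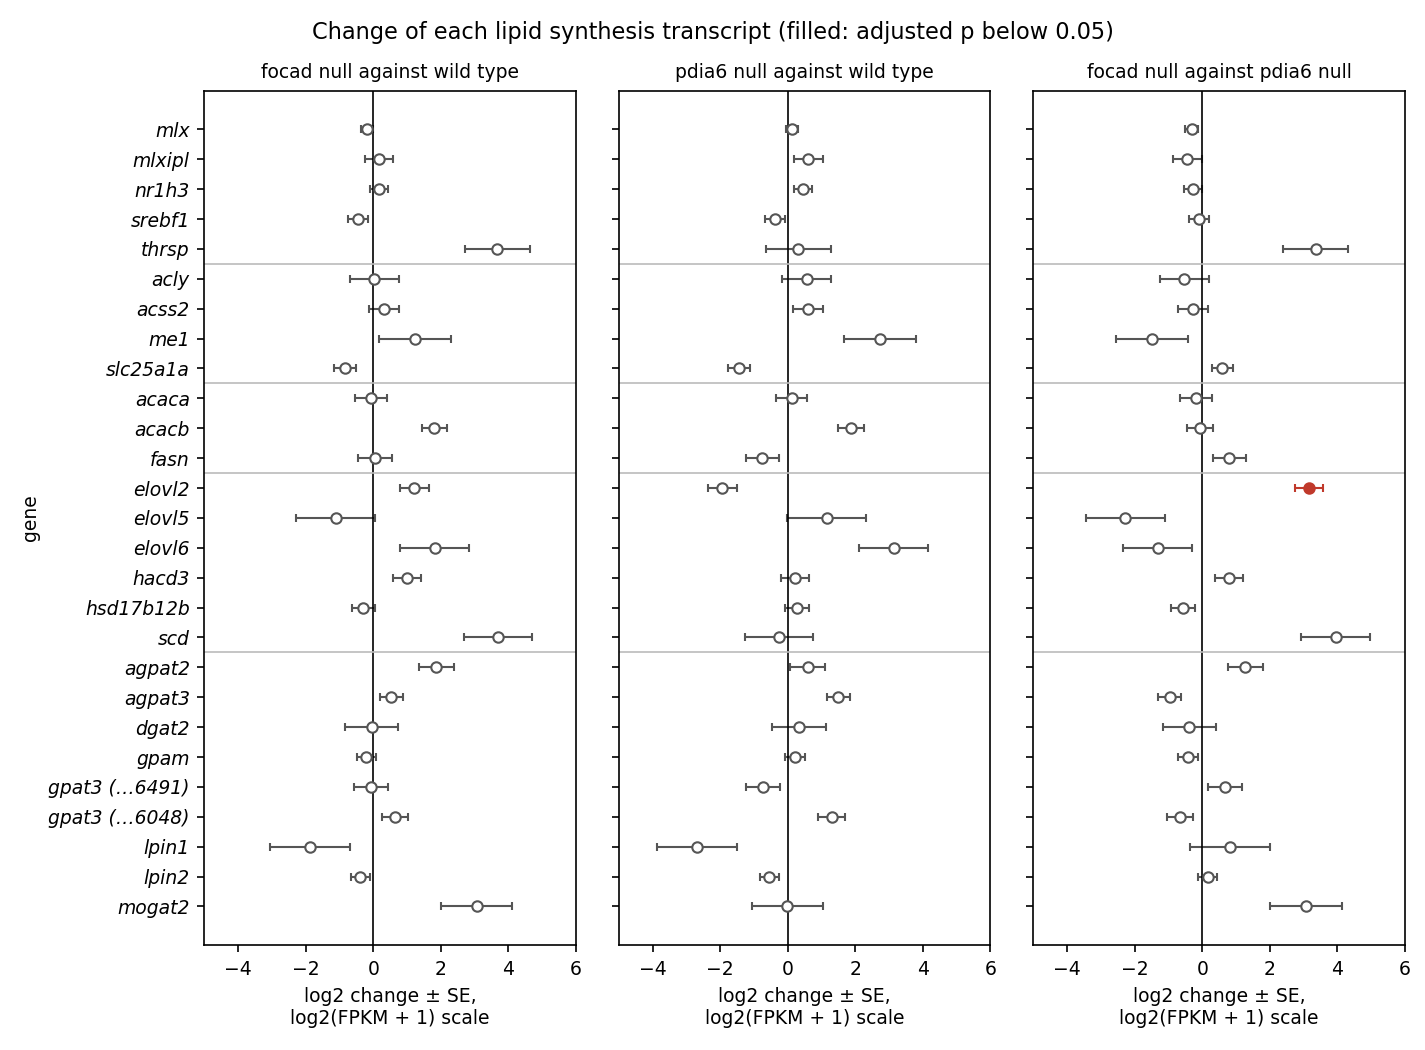
Log2 difference with its standard error for the 27 members tested, in focad null against wild type, pdia6 null against wild type, and focad null against pdia6 null. Filled points passed at an adjusted p of 0.05, and elovl2 between the mutants, at 3.16, is the filled one. The widest differences among the others, of thrsp, scd, mogat2 and elovl6, carry standard errors near 1.

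Mogat2 acylates monoacylglycerol and in mammals is known for fat absorption in the intestine. It measured 6.87, 56.9 and 0.455 FPKM in focad null, at 0.0510, 0 and 0.0543 FPKM in pdia6 null, and at 0.0373, 0.0216 and 0.0746 FPKM in wild type. Reads numbered 457, 2717 and 28 in focad null, 3, 0 and 3 in pdia6 null, and 2, 1 and 4 in wild type. Mogat2 reached the level required for testing only through focad null. Its log2 difference was 3.06 ± 1.06 against wild type (adjusted p = 0.243) and 3.08 ± 1.06 against pdia6 null (adjusted p = 0.199). Leaving out 1 library moved the difference from wild type between 1.70 and 4.35. Without focad null replicate 3, the lowest of its group, both passed limma, at 4.35 (adjusted p = 0.0144) and 4.37 (adjusted p = 0.0137). These passes add no support, because the direction was partly fixed by the level required for testing. Leaving out the lowest focad null library also necessarily widens both differences. In the order of genes in the RefSeq annotation of GRCz12tu, mogat2 lies next to dgat2, which was lowest of the focad null libraries in the one where mogat2 was highest.

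Intestine markers stood highest in the same library. Fabp2, which binds fatty acids in enterocytes, measured 237, 3640 and 71.1 FPKM in focad null, at 0.217, 3.45 and 2.34 FPKM in pdia6 null, and at 2.6, 6.05 and 4.72 FPKM in wild type. Vil1, of the brush border, stood at 23.4, 192 and 1.74 FPKM in focad null, and at or below 0.943 FPKM in the other 6 libraries. Fabp2 was higher in focad null than in pdia6 null by 7.24 ± 1.24 on the log2 scale (adjusted p = 0.0355 by limma). Over the whole intestine list, 16 of 17 genes tested had a positive log2 difference in focad null against wild type, with a median of 2.98 and 0 passing limma or voom. There were 12 at an unadjusted p under 0.05 (14.7% of all genes) and 11 without overlap (20.0% of all genes). Of the 17, 7 reached the level required for testing only through focad null, so their direction was partly fixed by that requirement and these counts are a description. None of the 19 was at 0 in all 9 libraries. Exocrine pancreas markers (14 genes) summed to 4984, 957 and 2231 FPKM in focad null, 428, 1013 and 513 FPKM in pdia6 null, and 366, 1305 and 479 FPKM in wild type. Endocrine pancreas markers (5 genes) summed to between 8.50 and 224 FPKM in focad null, 4.57 and 10.5 FPKM in pdia6 null, and 0.507 and 3.75 FPKM in wild type. The part of other tissue in the values of mogat2 and agpat2 was not tested. For thrsp, scd and elovl2 the library with the most intestine transcripts held the lowest focad null value. It is the library labelled focad null replicate 2, whose focad transcript lay within the wild-type range. The part of intestine or of genotype in these values was not tested. That library also held the lowest exocrine pancreas sum of focad null, and replicate 1, with the highest, held the highest thrsp and scd values. The part of pancreas in these values was not tested. Adipose markers (10 gene IDs) summed to 770, 519 and 704 FPKM in focad null, 189, 157 and 396 FPKM in pdia6 null, and 375, 922 and 951 FPKM in wild type. Most of these sums came from lpl, a lipase. Lpl (ENSDARG00000087697) gave 692, 428 and 579 FPKM in focad null, 148, 127 and 370 FPKM in pdia6 null, and 310, 853 and 880 FPKM in wild type. Cfd averaged 45.7 FPKM in focad null, 19.6 FPKM in pdia6 null and 42.1 FPKM in wild type. Both adipoq gene IDs, which define fat cells, were at or below 0.0397 FPKM in all libraries. Plin1, of the lipid droplet surface, measured 1.26, 0.234 and 0.928 FPKM in focad null, and at most 0.154 FPKM in the other 6 libraries. Cidec, another lipid droplet gene, measured 21.9, 16.5 and 67.9 FPKM in focad null, 8.72, 4.66 and 6.43 FPKM in pdia6 null, and 7.55, 16.1 and 16 FPKM in wild type. All 4 adipose genes tested were higher in focad null than in pdia6 null, with a median log2 difference of 1.36 and 0 passing limma or voom. All 4 had an unadjusted p under 0.05, where 17.9% of all genes did. Against wild type the median was 0.08 in focad null, with 0 of 4 at an unadjusted p under 0.05. In pdia6 null against wild type the median was -1.08, with 0 of 4 positive and 3 at an unadjusted p under 0.05 (12.5% of all genes). The part of fat tissue in the members' values was not tested.

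**Figure D4:**
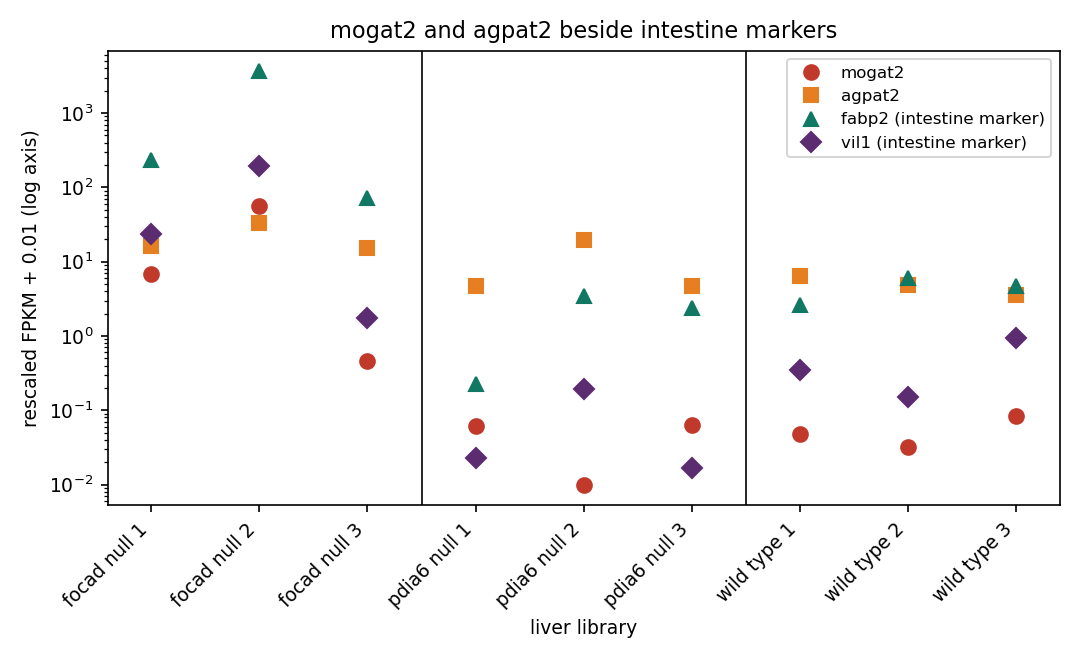
Level of mogat2 and agpat2 beside the intestine markers fabp2 and vil1 in each library, as FPKM + 0.01 on a log axis, for focad null, pdia6 null and wild type from left to right. In focad null, replicate 2 is the highest point of all 4 genes and replicate 3 the lowest.

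Other genes that feed or regulate the pathway were read from 5 lists. In the supply of NADPH, pyruvate and glucose, 1 of 13 genes tested passed as higher in focad null than in wild type and 0 as lower. Of all genes, 1.56% passed there. None of the 13 passed in the other comparisons. At an unadjusted p under 0.05 there were 4 of 13 in focad null against wild type (14.7% of all genes). There were 4 in pdia6 null against wild type (12.5% of all genes) and 6 between the mutants (17.9% of all genes). The gene that passed was idh1, the cytosolic isocitrate dehydrogenase, which yields NADPH. Idh1 stood at 80.1, 157 and 120 FPKM in focad null, at 54.3, 43.3 and 37.3 FPKM in pdia6 null, and at 27.1, 20.8 and 22.1 FPKM in wild type, with no overlap between any of the groups. It rose by 2.26 ± 0.29 on the log2 scale in focad null against wild type (limma, adjusted p = 0.00686), and the library labelled focad null replicate 2 held its highest value. In the authors' deposited table idh1 did not pass (adjusted p = 0.085). The median log2 difference of that list was 0.53 in focad null against wild type and -0.16 in pdia6 null against wild type.

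No gene of the other 4 lists passed limma in any comparison. Of their 45 genes tested, 7 (15.6%) had an unadjusted p under 0.05 in focad null against wild type, where 14.7% of all genes did. In pdia6 null against wild type 7 did (15.6%, against 12.5% of all genes), and between the mutants 13 did (28.9%, against 17.9%). Voom called 0. Among 11 acyl-CoA synthetases and fatty acid transporters, the median log2 difference from wild type was 0.19 in focad null and 0.03 in pdia6 null. Acsl4, which activates long-chain polyunsaturated fatty acids, measured 0.844, 0.419 and 0.792 FPKM in pdia6 null, against 2.79, 3.34 and 10.3 FPKM in wild type (adjusted p = 0.0778). The transporter slc27a1 measured 15, 19.5 and 15 FPKM in pdia6 null, against 10.5, 9.75 and 8.97 FPKM in wild type (adjusted p = 0.155). Neither pair of groups overlapped.

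Among 6 other elongation enzymes the median log2 difference was 0.31 in focad null and -0.26 in pdia6 null. Elovl8a measured 3.43, 3.49 and 7.43 FPKM in focad null, against 0.60, 0.0870 and 0.925 FPKM in wild type (adjusted p = 0.0740). Degs1, a desaturase of sphingolipid synthesis, measured 16.8, 15.3 and 19.9 FPKM in focad null, against 42.9, 22.7 and 30.2 FPKM in wild type (adjusted p = 0.301). Among 11 other glycerolipid enzymes the medians were 0.19 in focad null and 0.12 in pdia6 null, and the lowest p values belonged to mogat3b (adjusted p = 0.615 in pdia6 null) and gpd1c (adjusted p = 0.568 in focad null).

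Among 17 regulators of lipogenesis the medians were -0.06 in focad null and -0.20 in pdia6 null. Rxra, the partner of many nuclear receptors, measured 3.86, 6.97 and 8.13 FPKM in pdia6 null, against 2.35, 2.85 and 2.44 FPKM in wild type (adjusted p = 0.122). Nr0b2, known in mammals as the small heterodimer partner, measured 9.13, 81.7 and 1.98 FPKM in focad null, against 0.704, 0.420 and 0.501 FPKM in wild type (adjusted p = 0.196). With means of 0.542 FPKM in wild type and 0.359 FPKM in pdia6 null, nr0b2 reached the level required for testing only through focad null. Like mogat2, it was highest in the focad null library with the most intestine marker transcripts.

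The authors' deposited tables compare each mutant with wild type and called more of the members. For focad null, the authors' deposited table lists 1 member under an adjusted p of 0.05, thrsp (log2 ratio 2.87, adjusted p = 0.0493), where 295 of all 33716 genes were called. For pdia6 null, the authors' deposited table lists 5 members, where 428 of all 33716 genes were called. These members are slc25a1a (-2.76, adjusted p = 0.00069), elovl6 (2.40, adjusted p = 0.00158), acacb (2.02, adjusted p = 0.0132), elovl2 (-1.99, adjusted p = 0.0158) and me1 (1.93, adjusted p = 0.0373). Each of these 6 pairs of groups had no overlap and the same direction here, and none passed limma.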

How the data were processed

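RNA of 9 liver libraries was sequenced. Per the submitters' processing notes, HTSeq 0.6.1, TopHat2 2.0.12, Bowtie2 2.2.3 and danRer11 were used, without a stated role or order. The authors deposited FPKM per gene and library. Their 2 comparison tables hold, per the file headers, a group mean read count (a signal value scaled by the authors), a p-value, its adjusted form and a log2 ratio. Annotation and strand setting: not given in the sources used here.

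Symbols came from the supplied name table (29201 of 33716 gene IDs). FPKM was rescaled by median ratio over 7660 genes (factors from 0.88 to 1.1). Genes averaging 0.5 FPKM or more were fitted as log2(FPKM + 1) with limma 3.58.1 in R 4.3.3 (trend, robust, 3 group means, 9 libraries, 6 residual degrees of freedom), two-sided, with Benjamini-Hochberg adjustment over 13290 genes and a threshold of 0.05. This scale understates changes of low genes. Reads were recovered from FPKM steps, with each gene's length chosen to give whole reads. They were whole within 0.05 for 99.97% of 164596 values, a share largely fixed by that choice. Python 3.11.15 with pandas 2.3.3 and matplotlib 3.10.9 handled tables and plots. No pair of libraries in a group agreed within sampling noise (chi-square over degrees of freedom, 193 to 1002).

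Members and lists were chosen with earlier results of these data known. Values per library are given for members that passed, the 6 with the lowest p per comparison and core lipogenic genes. In other pathway lists the genes that passed are named, otherwise the 2 with the lowest p. The fit was tested on simulated data. Alternatives were other pseudocounts, filters, scalings, a replicate block, limma voom on recovered reads, omitted libraries, the authors' tables and, after the data were seen, added gene copies.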

Additional observations from a re-analysis of the deposited data

Results flagged for a closer look

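The difference of elovl2 between the mutants was flagged under a rule for members that differ between groups. Its differences from wild type had opposite signs, but neither passed with all 9 libraries, and focad null overlapped wild type. Elovl2 was 3.16 log2 units higher in focad null than in pdia6 null (adjusted p = 0.0116 by limma), with 3 of 3 focad null libraries above 3 of 3 pdia6 null libraries. Against wild type it differed by 1.22 in focad null (adjusted p = 0.235) and by -1.93 in pdia6 null (adjusted p = 0.0813). Both of these share the wild-type libraries, and the pdia6 null difference passed when the library labelled focad null replicate 2 was left out (adjusted p = 0.030).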

How the results depend on the processing

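The limits include the 3 libraries per group and the 2 mutant libraries whose targeted transcript lay within the wild-type range. Whether those 2 labels are right was not tested. Further limits are the wide spread of lipogenic genes in wild type, and the intestine and pancreas transcripts in focad null libraries. The age of the focad null fish is also missing from the labels used here. Of the single-gene results under all alternatives, 1681 kept direction and side of the threshold, 20 passed newly, 4 no longer passed and 63 changed sign, all 63 for differences that did not pass, and the cause was not tested. Replicate numbers paired the libraries only in part (same-numbered correlations from -0.19 to 0.29). Pdia6 null replicates 1 and 2 correlated best with the wild-type library of the same number (0.29 and 0.23). Focad null replicate 3 correlated best with pdia6 null replicate 3 (0.11), and the remaining best partners carried another number. A replicate block gave 121, 82 and 82 genes called in focad null against wild type, pdia6 null against wild type, and focad null against pdia6 null, against 207, 163 and 160, and 0 members between the mutants (elovl2, adjusted p = 0.0524). Limma voom gave 94, 94 and 77 genes, a mean of at least 2 FPKM 98 and 91 against wild type, a pseudocount of 0.1 gave 254 between the mutants, and 428 genes were called for pdia6 null by the authors. Leaving out 1 library gave 90 to 485, 78 to 239 and 61 to 642 genes, and 0 to 1, 0 to 2 and 0 to 2 members. Omitting the libraries labelled focad null replicate 2 and pdia6 null replicate 1 together gave 104 genes and 2 members between the mutants (elovl2 and scd). It gave 1 member (scd) in focad null against wild type, and a member median of 0.54 there, where leaving out 1 library gave 0.030 to 0.54. Omitting wild-type replicate 1 with the library labelled pdia6 null replicate 1 gave 70 genes and 0 members between the mutants, and 1 member (acacb) in each mutant against wild type. The authors' tables gave 1 and 5 members, where 295 and 428 of all 33716 genes were called.

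For focad null against wild type, sign changes came without the libraries labelled focad null replicate 2 and pdia6 null replicate 1 for acaca (0.023), dgat2 (0.81), elovl5 (0.044) and acss2 (-0.18). Without the wild-type and pdia6 null replicate 1 pair they came for fasn (-0.081), acaca (0.00077), dgat2 (0.26), gpat3 ENSDARG00000006491 (0.0044) and hsd17b12b (0.017). They also came under upper-quartile scaling for fasn (-0.031) and acly (-0.067), on deposited FPKM for acaca (0.040) and dgat2 (0.058), and in the authors' table for dgat2 (0.17) and gpat3 (0.29). In pdia6 null against wild type, thrsp was -0.17 without that pair and -0.45 in the authors' table. The authors' values are log2 ratios of group means, a different measure from the difference of mean log2(FPKM + 1) used here. As a ratio of mean FPKM to wild type, thrsp stood at 0.733 in pdia6 null. In focad null this ratio was 1.12 for dgat2 and 1.30 for gpat3 ENSDARG00000006491. Each ratio had the direction of the authors' value. Between the mutants, acly (0.57) and srebf1 (0.077) changed sign without the libraries labelled focad null replicate 2 and pdia6 null replicate 1. Lpin2 (-0.023) did so without the wild-type and pdia6 null replicate 1 pair. Leaving out 1 library gave, in focad null against wild type, fasn -0.42 to 0.54, acaca -0.21 to 0.023, acly -0.58 to 0.69, elovl5 -2.01 to 0.044, mlxipl -0.10 to 0.58, dgat2 -0.60 to 0.81, gpat3 ENSDARG00000006491 -0.71 to 0.42, acss2 -0.18 to 0.80 and hsd17b12b -0.56 to 0.017. In pdia6 null against wild type it gave thrsp -0.54 to 1.45, acaca -0.45 to 0.62, scd -0.57 to 0.086, dgat2 -0.22 to 0.81, gpam -0.063 to 0.48, agpat2 -0.025 to 0.89, mogat2 -0.029 to 0.012 and hacd3 -0.10 to 0.58. Between the mutants it gave acaca -0.68 to 0.39, acacb -0.28 to 0.092, acly -1.13 to 0.13, srebf1 -0.30 to 0.19, dgat2 -0.86 to 0.48, lpin2 -0.023 to 0.34 and acss2 -0.78 to 0.20.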

Other observations

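Gene IDs that carry a member's symbol without its copy letter could not be assigned to a copy. There were 11 of them, of which 8 were tested, and with them added the members called remained 0, 0 and 1 of 35 in the 3 comparisons. Gpd1 (ENSDARG00000043180), which makes glycerol 3-phosphate for triglyceride assembly, was the most abundant, at 385, 222 and 506 FPKM in focad null, at 421, 505 and 473 FPKM in pdia6 null, and at 327, 302 and 275 FPKM in wild type. Its pdia6 null libraries lay above wild type, by 0.63 ± 0.31 (SE) on the log2 scale (adjusted p = 0.467 by limma). Dgat1 (ENSDARG00000054914), of the last step of triglyceride synthesis, stood at 2.02, 6.02 and 5.55 FPKM in focad null, at 10.6, 7.82 and 5.44 FPKM in pdia6 null, and at 7.51, 7.83 and 10.4 FPKM in wild type. Its focad null libraries lay below wild type, by -0.88 ± 0.36 (adjusted p = 0.310). The other dgat1 gene ID, ENSDARG00000103503, and hsd17b12 (ENSDARG00000015709) reached 58.0 and 8.95 FPKM in the library labelled focad null replicate 2, which held the most intestine marker transcripts. Elsewhere this dgat1 stayed at or below 24.1 FPKM and hsd17b12 at or below 1.31 FPKM.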
